A study of Mus musculus with 14 samples.

Results

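The comparison described here is the myeloid step of the FDCPmix hierarchy: Gr1+ cells against Kit+Gr1-Sca1hi cells, called Sca1hi below. The labels give mouse bone marrow as the tissue behind FDCPmix, a line of blood progenitors that grows in interleukin-3 and can yield several blood lineages. All cells came from maintenance culture in medium with horse serum and interleukin-3 from WEHI cell supernatant, and were separated by flow sorting after antibody staining, with no further treatment given in the labels. Sca1hi cells carry the receptor Kit, lack the granulocyte antigen Gr1 and stain strongly for Sca1, whereas the label of Gr1+ cells names the Gr1 antigen alone. The 3 single-colour arrays of Gr1+ cells and the 3 of Sca1hi cells, chosen by these labels, make up 6 of the 14 arrays in the series. The other 8 are 3 of Kit+Gr1-Sca1lo cells (Sca1lo), which stain weakly for Sca1, 3 of Kit-Gr1- cells, which lack both antigens, and 2 of unfractionated cells. All are 1 line in 1 kind of culture, so the cells of every group were exposed to interleukin-3, and p-values measure the spread between sorted samples of that line.

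Granulocytes mature through stages that differ in the proteins they make. Promyelocytes load primary granules with myeloperoxidase and serine proteases, myelocytes and later cells fill secondary and gelatinase granules with lactoferrin, lipocalin and metalloproteinases, and the late cells carry large amounts of the calgranulins S100a8 and S100a9. C/EBP factors, the ETS factor PU.1 (Spi1) and the repressor Gfi1 drive this course, eosinophils and basophils make granule proteins of their own, and the cells leave the cell cycle as they mature.

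Genes for neutrophil granule proteins, calgranulins, stefins and eosinophil granule proteins were far higher in Gr1+ than in Sca1hi cells: 18 of 25 genes of secondary and gelatinase granules, 9 of 15 stefin and S100 genes and 6 of 11 eosinophil genes rose. In the list of Fc, inhibitory and activating receptors with their kinases 17 of 32 genes rose, in that of pattern recognition 11 of 29, in that of the lysosome 11 of 36 and in that of mast cells and basophils 6 of 21. Levels are log2 processed signals relative to the 75th percentile of the same array, so 0 is the upper quartile of the array, and levels of different probes are not compared. Values are listed for replicates 1, 2 and 3 in that order, and errors after ± are limma standard errors of a difference between 3 and 3 arrays. Differences are Gr1+ minus Sca1hi on the same log2 scale. Rose and fell are used for a Benjamini-Hochberg adjusted p under 0.05 across all genes tested together with a change of 2-fold or more. Of 29904 genes tested, 563 were called (1.88%): 476 rose (1.59% of all tested) and 87 fell (0.291%), 401 and 66 of them with a gene symbol. The groups did not overlap, with every Gr1+ array above every Sca1hi array, for 7.21% of all genes, and with every Gr1+ array below for 5.10%. The median rise among called genes was 2.34 on the log2 scale (5.07-fold) and the median fall -2.03 (4.07-fold). Increases reached further than decreases: 93 genes rose by at least 4 on the log2 scale and 52 by at least 5, whereas 0 fell by 4 and 6 fell by at least 3. In 31 of the 35 gene lists used below 0 of the measured members fell in limma. At an unadjusted p under 0.05, 36 of the 777 genes in those 31 lists were lower and 262 higher. Over all 29904 genes tested, 933 were lower and 1652 higher at that threshold in limma. Which direction held more genes at that threshold depended on the setting. With quantile normalization 2246 were lower and 2065 higher, and without replicate 3 of both groups 2747 and 1883. With scaling to array medians 273 were lower and 854 higher.

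**Figure D1:**
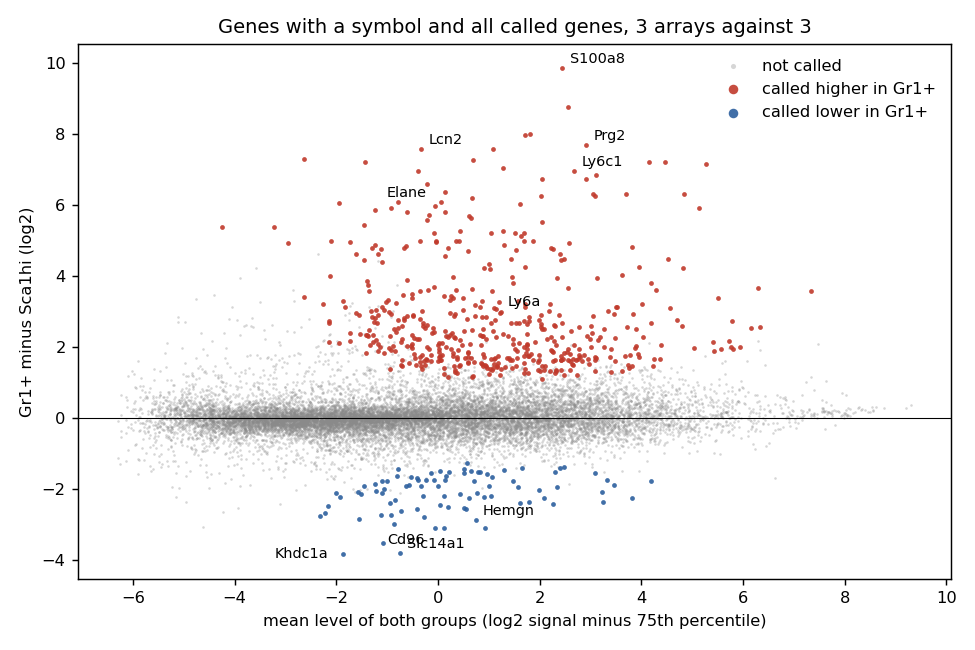
Each point is a gene, with its mean level over both groups on the x axis and its difference, Gr1+ minus Sca1hi, on the y axis, both on the log2 scale from 3 arrays a group. The 476 genes that rose (red) reach 9.86 above 0, while the 87 that fell (blue) end at -3.86.

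The counts depended on single arrays and on scaling, whereas the called genes kept their direction. The 563 called genes kept their sign in the 22 other settings in which they could be fitted. Of these genes 0 was called the other way. Every setting holds some or all of the 6 arrays that chose these genes, so the kept signs are a description and no independent check. The 6 arrays had 79.5% to 98.9% of spots well above background and median signals of 129 to 801. Signals were compressed on Sca1hi replicate 3 (interquartile range 2.37 on the log2 scale, against 4.20 and 4.92 on replicates 1 and 2) and on Gr1+ replicate 3 (3.04, against 4.17 and 4.50). Negative control spots on Sca1hi replicate 3 had a standard deviation of 367 in background-subtracted signal, against 4.45 and 10.5 on replicates 1 and 2. On that array 98.9% of spots were flagged well above background. How far the flag marks signal of dim genes there was not tested. Without Sca1hi replicate 3, 796 genes rose and 456 fell, and without both compressed arrays 735 (2.46%) and 532 (1.78%). Leaving out Gr1+ replicate 2 left 211 and 22, Sca1hi replicate 1 278 and 22, Sca1hi replicate 2 339 and 12, and Gr1+ replicate 1 337 and 38. Of the called genes 84.5% had risen. That share was 97.7% with scaling to array medians (172 rose, 4 fell), 72.7% with quantile normalization (651 and 244), 73.4% with normexp correction before it (653 and 237) and 53.5% in the deposited values without scaling (455 and 396), where the median of all genes moved from -0.04 to -0.33. Replicate number as a block gave 1088 higher (3.64%) and 462 lower (1.54%), in a fit with 2 residual degrees of freedom and an infinite prior, so that the spread of the single gene had no weight in it. Moderation without a trend left 79 and 0 genes, with 1317 and 709 at an unadjusted p under 0.05, and a fit over all 14 arrays 248 and 98. These settings ended 82 and 44 of the 109 calls among the genes chosen by rule for naming, and a fit over the 12 sorted arrays ended the calls of S100a8 and S100a9. On slides 1 and 3, each with 1 array of both groups, all 475 higher genes with values on both slides and all 87 lower genes kept their direction, at medians of 2.14 and 2.05 for the higher and -2.02 on both for the lower. The arrays compared on these slides are among the 6 that chose the genes. Replicate number and slide are not independent here, since the first replicates of all 4 sorted fractions are on slide 1.

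The gate antigens come first, since they check the labels, and the granule genes Elane and Ngp, which mark neutrophil precursors, follow below. Gr1 antibodies bind the products of Ly6g and Ly6c genes, and of these Ly6c1 was measured. Its level was 5.73, 6.72 and 6.03 in Gr1+ cells and -2.25, 0.36 and -0.51 in Sca1hi cells. The groups lie far apart, and Ly6c1 rose by 6.96 ± 0.58 (125-fold, adjusted p = 0.000550). Ly6a, which encodes Sca1, was at 2.57, 3.05 and 2.58 in Gr1+ cells and -0.52, 0.16 and -0.42 in Sca1hi cells, so all Gr1+ arrays lie above the cells that were sorted for strong Sca1 staining. It rose by 2.99 ± 0.27 (7.96-fold, adjusted p = 0.000783). In the Sca1lo and Kit-Gr1- arrays Ly6a lay lower, at -2.96, -2.38 and -2.40 and -3.21, -2.25 and -2.12. Kit, the receptor for stem cell factor, was at 0.43, 0.97 and 0.61 in Gr1+ cells and 0.77, 0.56 and -0.18 in Sca1hi cells. These ranges overlap, and the difference was 0.29 ± 0.31 (adjusted p = 1.000, 95% interval -0.41 to 0.98). Its sign turned in the deposited values without scaling (-0.01) and with slide as a fixed block (-0.15). Within slide 1 the difference was -0.34 and within slide 3 0.05. In the wider Ly6 family, whose small surface proteins share 1 fold, 4 of 24 measured members rose and 0 fell, at a median of 0.07 against -0.04 for all genes. Besides Ly6c1 and Ly6a these were Ly6i, by 3.13 ± 0.31 (8.73-fold), and the urokinase receptor gene Plaur, by 2.56 ± 0.40 (5.92-fold). Ly6 genes are close paralogs, and cross-hybridisation of their probes was not tested. Ly6a and Plaur lost their calls with array median scaling. Plaur lost its call without Sca1hi 2.

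**Figure D2:**
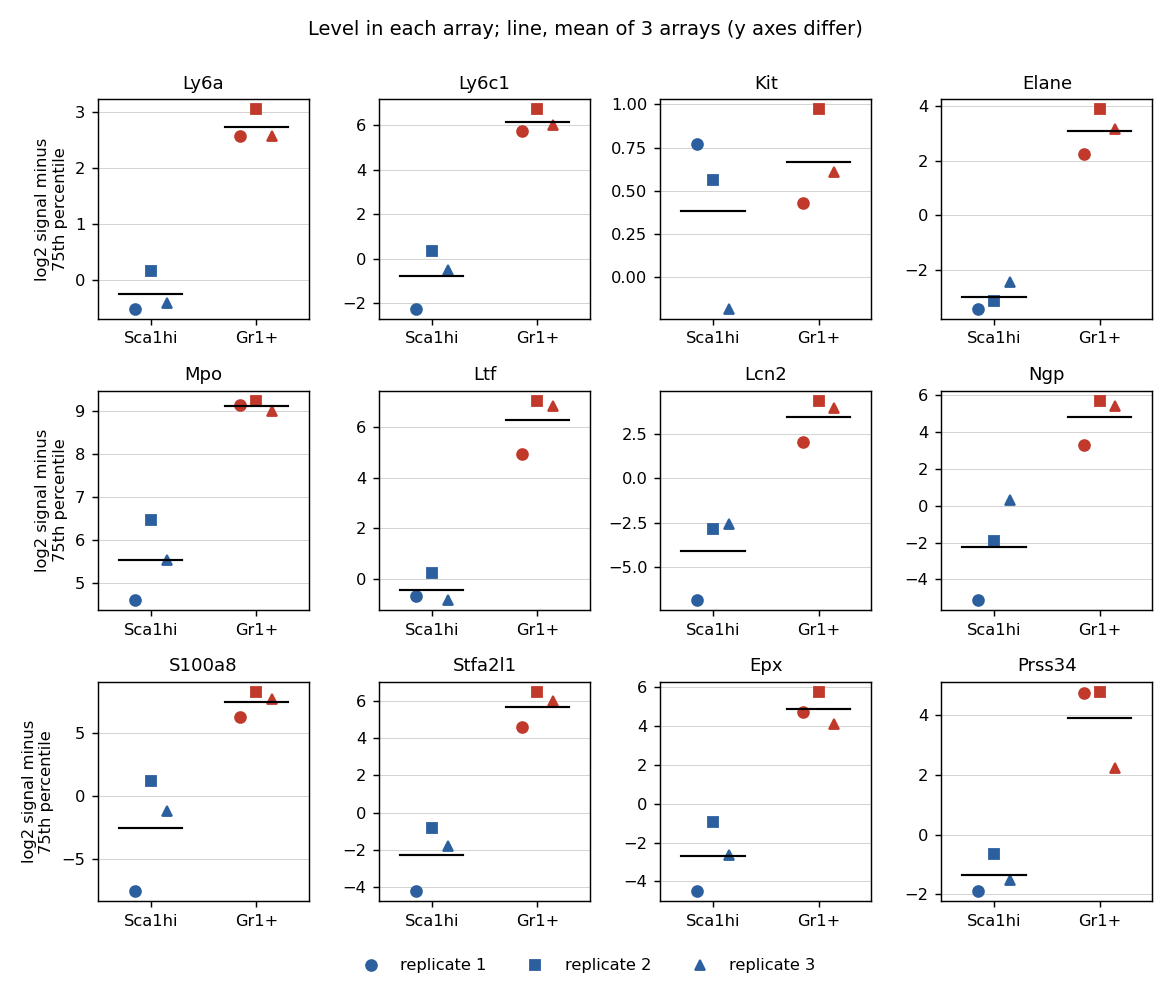
Levels of 12 genes (log2 signal minus the array's 75th percentile) in the 3 Sca1hi arrays (blue) and the 3 Gr1+ arrays (red), with the symbol giving the replicate number and the line the mean of 3. The groups are apart for every gene but Kit, and Sca1hi replicate 1 is the lowest of its group for S100a8 (-7.52) and Lcn2 (-6.88).

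Proteases, peroxidase and lysozymes of the primary granule were higher in Gr1+ cells. Those named here were flagged well above background on every Sca1hi array, with the limit given above for Sca1hi replicate 3. Of 15 measured members 8 rose and 0 fell, at a median of 1.99 (-0.66 to 6.08). Elane, which encodes neutrophil elastase, was at 2.25, 3.87 and 3.16 in Gr1+ cells and -3.40, -3.14 and -2.42 in Sca1hi cells. The groups lie far apart, and Elane rose by 6.08 ± 0.43 (67.6-fold, adjusted p = 0.000237). Prtn3, which encodes proteinase 3 and lies beside Elane in the genome, was at 4.03, 4.64 and 4.27 in Gr1+ cells and 0.15, 0.70 and 0.24 in Sca1hi cells, and rose by 3.95 ± 0.26 (15.5-fold, adjusted p = 0.000236). Mpo, the myeloperoxidase gene, stood at 9.12, 9.23 and 9.0, against 4.61, 6.47 and 5.53 in Sca1hi cells. The Gr1+ arrays lie close together for Mpo while the Sca1hi arrays spread more widely. It rose by 3.58 ± 0.55 (12-fold, adjusted p = 0.0102). The lysozyme genes rose too, Lyz1 from 2.27, 2.92 and 1.65 to 5.50, 7.61 and 7.20 (by 4.49 ± 0.55, 22.5-fold) and Lyz2 from 4.53, 5.11 and 3.75 to 7.70, 8.44 and 8.21 (by 3.66 ± 0.45, 12.6-fold). The lysozyme genes are close paralogs, and how far the probes of each read the other's transcript was not tested. Mpo and Lyz2 lost their calls with array median scaling. Mpo lost its call without Gr1+ 1, Gr1+ 2 or Sca1hi 1.

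Promoters of the genes that moved most in the granule and stefin lists are shown because these genes rose together by the largest amounts, and C/EBP and PU.1 are known regulators of granulocyte genes. They are RefSeq promoters of build GRCm38.p6, from 250 bases before to 50 after the annotated start, printed 5′ to 3′ on the gene's strand. Capitals mark each match, on either strand, to TTGCNNAA, a C/EBP-type motif, and to GAGGAA, a PU.1-type motif, and the motifs do not overlap in these windows. Of the 6 genes chosen by size of change, Cstdc6 had no entry in the table. The windows lie at chr3:90668821-90669120, plus strand (S100a8), chr16:36156561-36156860, plus strand (Stfa2l1), chr2:32387690-32387989, minus strand (Lcn2), chr16:36131140-36131439, minus strand (Csta1) and chr3:90695672-90695971, minus strand (S100a9).
S100a8: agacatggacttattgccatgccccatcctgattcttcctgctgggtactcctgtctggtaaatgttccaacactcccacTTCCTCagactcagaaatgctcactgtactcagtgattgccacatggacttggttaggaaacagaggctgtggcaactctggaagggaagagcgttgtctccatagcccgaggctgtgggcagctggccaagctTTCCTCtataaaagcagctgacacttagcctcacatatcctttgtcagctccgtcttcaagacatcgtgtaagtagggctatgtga
Stfa2l1: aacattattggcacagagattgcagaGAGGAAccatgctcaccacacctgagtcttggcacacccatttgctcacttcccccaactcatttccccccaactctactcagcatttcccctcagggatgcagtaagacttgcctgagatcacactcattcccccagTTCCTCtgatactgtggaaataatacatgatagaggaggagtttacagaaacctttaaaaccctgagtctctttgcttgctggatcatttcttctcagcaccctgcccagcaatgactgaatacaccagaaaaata
Lcn2: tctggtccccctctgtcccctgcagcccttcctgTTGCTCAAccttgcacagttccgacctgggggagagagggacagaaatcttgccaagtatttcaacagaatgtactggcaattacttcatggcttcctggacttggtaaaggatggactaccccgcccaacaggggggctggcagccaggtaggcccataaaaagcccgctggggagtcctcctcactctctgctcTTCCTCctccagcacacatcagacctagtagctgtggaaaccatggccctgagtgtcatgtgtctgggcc
Csta1: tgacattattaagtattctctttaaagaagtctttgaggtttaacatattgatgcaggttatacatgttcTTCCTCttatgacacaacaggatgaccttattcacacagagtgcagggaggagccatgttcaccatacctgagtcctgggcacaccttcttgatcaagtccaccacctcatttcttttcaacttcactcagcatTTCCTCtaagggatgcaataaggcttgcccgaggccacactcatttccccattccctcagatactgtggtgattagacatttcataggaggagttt
S100a9: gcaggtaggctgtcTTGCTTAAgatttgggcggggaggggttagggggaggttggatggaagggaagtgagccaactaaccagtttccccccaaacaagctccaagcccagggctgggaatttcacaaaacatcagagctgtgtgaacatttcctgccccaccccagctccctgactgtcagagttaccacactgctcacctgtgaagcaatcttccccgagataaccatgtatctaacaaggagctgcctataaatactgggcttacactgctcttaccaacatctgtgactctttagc
The C/EBP-type motif stands once each in the Lcn2 and S100a9 windows, and in the other 3 windows these letters are not found. The PU.1-type motif stands in all but the S100a9 window, at 2 places in S100a8, Stfa2l1 and Csta1 and at 1 in Lcn2. Among all 32851 promoters in the table, 10.8% hold the C/EBP-type motif and 28.3% the PU.1-type motif. Among the 397 promoters of 310 genes that rose, 14.9% and 37.0% do, and among the 67 of 55 genes that fell, 13.4% and 35.8%. Of 19 promoters of secondary and gelatinase granule genes 9 hold the C/EBP-type motif and 9 the PU.1-type motif. For 12 promoters of stefins and S100 genes, the list of 4 of the 5 windows, the counts are 2 and 7, for 14 of primary granule genes 3 and 9, and for 9 of eosinophil genes 3 and 4. These shares are descriptions with no test.

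Genes of secondary and gelatinase granules stood with the eosinophil genes at the top of the lists by median, 4.61 against 4.23, in an order that turned without the 2 compressed arrays (4.75 against 4.83). Of 25 measured members 18 rose and 0 fell, against 1.59% and 0.291% of all genes tested. The groups did not overlap, with every Gr1+ array above, for 20, against 7.21% of all genes. The median over all genes was -0.04. Lcn2, the siderophore-binding lipocalin whose promoter is shown above, was at 2.05, 4.38 and 3.96 in Gr1+ cells and -6.88, -2.89 and -2.59 in Sca1hi cells. It rose by 7.58 ± 1.04 (192-fold, adjusted p = 0.00568), with 2 of the 3 Sca1hi arrays well above background. Ltf, which encodes lactoferrin, was at 4.95, 7.05 and 6.84 in Gr1+ cells and -0.70, 0.22 and -0.85 in Sca1hi cells and rose by 6.72 ± 0.53 (106-fold, adjusted p = 0.000413). The Sca1hi arrays vary far more for Lcn2 than for Ltf, and in both genes Gr1+ replicate 1 is the lowest Gr1+ array. Ngp, a cathelicidin-related granule protein, was at 3.31, 5.70 and 5.41 in Gr1+ cells and -5.12, -1.93 and 0.34 in Sca1hi cells and rose by 7.04 ± 1.16 (132-fold, adjusted p = 0.0150). Camp, the antimicrobial cathelicidin, stood at 1.32, 4.30 and 3.64 against -6.33, -3.54 and -1.75 and rose by 6.96 ± 1.08 (124-fold, adjusted p = 0.0108), with 2 of the 3 Sca1hi arrays well above background. Mmp8, the neutrophil collagenase, stood at 1.95, 4.29 and 3.73 against -5.58, -2.19 and -1.35 and rose by 6.36 ± 0.98 (82.2-fold, adjusted p = 0.0108). In these 3 genes Sca1hi replicate 1 is the lowest and the compressed replicate 3 the highest array of its group. The 13 other members that rose did so by 2.35 to 6.32, and the 7 that were not called measured -0.23 to 4.61. Ngp, Camp and Mmp8 lost their calls without Sca1hi 2.

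The stefins, small inhibitors of cysteine proteases, and the S100 proteins held the genes with the widest differences. Of 15 measured members 9 rose and 0 fell, at a median of 1.95. S100a8 and S100a9 encode the 2 chains of calprotectin. S100a8 stood at 6.26, 8.18 and 7.68 in Gr1+ cells and -7.52, 1.21 and -1.15 in Sca1hi cells, and S100a9 at 8.67, 9.08 and 8.81 against -1.70, 4.62 and 2.17. In both genes Sca1hi replicate 1 is the lowest and replicate 2 the highest of its group, whereas the Gr1+ arrays spread less. S100a8 rose by 9.86 ± 1.75 (930.1-fold, adjusted p = 0.0223) and S100a9 by 7.15 ± 1.23 (142-fold, adjusted p = 0.0188), and S100a8 was well above background on 2 of 3 Sca1hi arrays. Within slides 1 and 3 the S100a8 difference was 13.78 and 6.47. Its value on Sca1hi replicate 1 lies below the lowest level flagged well above background on that array (-6.10). The sizes of its mean difference and slide 1 difference are therefore uncertain. The calls of S100a8 and S100a9 ended without Gr1+ replicate 1 (adjusted p up to 0.231 and 0.265 over all settings). Stfa2l1 was at 4.61, 6.47 and 6.03 in Gr1+ cells and -4.24, -0.81 and -1.80 in Sca1hi cells and rose by 7.99 ± 0.79 (254-fold, adjusted p = 0.00104). Csta1 was at 7.86, 8.30 and 8.08 against -1.38, 3.23 and 0.73 and Cstdc6 at 7.49, 8.04 and 7.77 against -1.74, 2.72 and 0.62, and they rose by 7.22 ± 0.90 (149-fold) and 7.23 ± 0.88 (150.2-fold). Both follow the same order of Sca1hi arrays as the calgranulins. The probes of Csta1 disagreed, from 1.57 to 7.22, and stefin genes of this cluster are near copies of each other, so their single values are uncertain. Of the 22 genes of the list 7 had no probe named for them.

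The spread among Sca1hi arrays followed the replicate number in the other Gr1- fractions too. S100a8 was at -7.98, 0.88 and -0.54 in Sca1lo cells and -8.36, 1.48 and 0.26 in Kit-Gr1- cells, so replicate 1 was the lowest and replicate 2 the highest in all 3 Gr1- fractions. These replicate 1 values lie below the lowest level flagged well above background on their arrays (-6.01 in Sca1lo, -6.43 in Kit-Gr1-), so their depth is uncertain. For the 9 stefin and S100 genes that rose, the median level by replicate was -1.70, 2.56 and 0.62 in Sca1hi cells. It was -0.68, 2.58 and 1.13 in Sca1lo cells and 0.78, 3.05 and 2.08 in Kit-Gr1- cells. In Gr1+ cells the same medians were 6.26, 6.8 and 6.53, a far narrower spread. Replicate 1 was the lowest array for 10 of the 18 secondary granule genes that rose in Sca1hi cells, for 17 in Sca1lo cells, for 15 in Kit-Gr1- cells and for 15 in Gr1+ cells. Over all genes that rose, replicate 1 was the lowest Sca1hi array for 193 of 471 and the lowest Gr1+ array for 312 of 476. Over all genes tested with a value on all 3 arrays it was so for 4056 of 29518 and 9618 of 29863. Elane varied less, at -3.40, -3.14 and -2.42 in Sca1hi and -3.28, -2.15 and -2.82 in Sca1lo cells. Replicate 1 of all 4 fractions was on 1 slide. In bulk samples a few Gr1+ cells in a sorted fraction and a low level in every cell cannot be told apart.

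**Figure D3:**
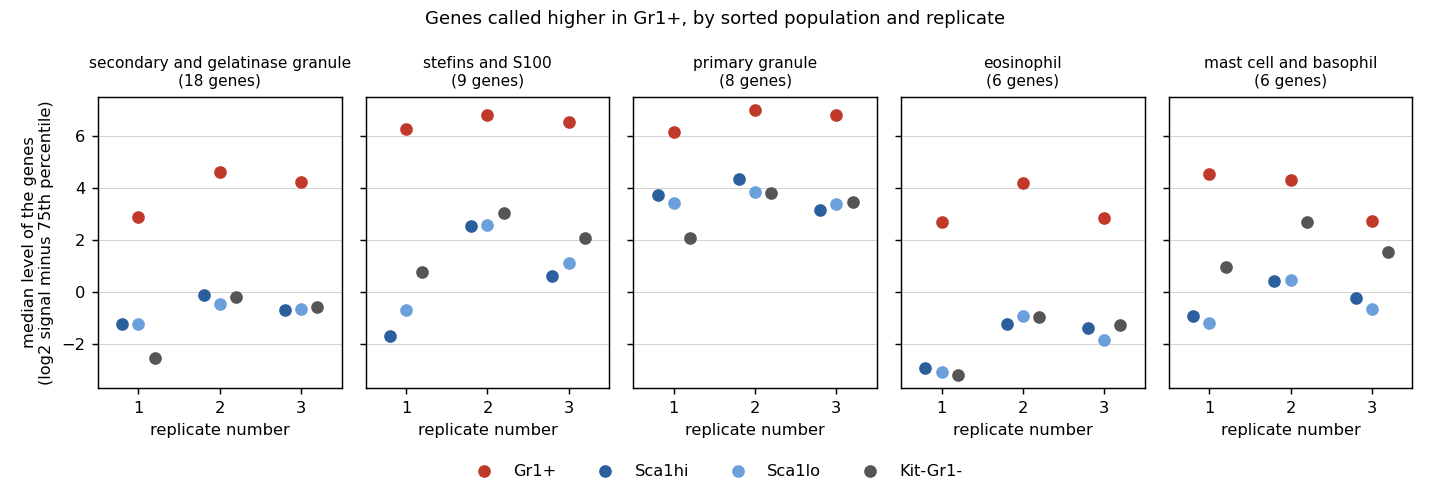
Median level (log2 signal minus the 75th percentile) of the genes of 5 lists that rose in Gr1+ cells, by replicate number, in the 4 sorted fractions. For stefins and S100 genes replicate 1 lies below replicate 2 in every Gr1- fraction (-1.70 against 2.56 in Sca1hi). For genes of the mast cell and basophil list Gr1+ replicate 3 (2.72) lies below replicates 1 and 2.

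Eosinophil genes rose beside those of neutrophils. Of 11 measured members 6 rose and 0 fell, at a median of 4.23. With normexp background correction this median was 2.45. Prg2, the major basic protein of the eosinophil granule, was at 6.21, 7.68 and 6.38 in Gr1+ cells and -2.73, 1.13 and -1.21 in Sca1hi cells and rose by 7.69 ± 0.82 (207-fold, adjusted p = 0.00154). Epx, the eosinophil peroxidase, was at 4.73, 5.75 and 4.12 against -4.52, -0.95 and -2.65 and rose by 7.57 ± 0.77 (190.3-fold, adjusted p = 0.00115). Sca1hi replicate 1 is again the lowest and replicate 2 the highest for both, and Gr1+ replicate 2 is the highest Gr1+ array. Prg3, a homolog of Prg2, stood at 1.89, 3.62 and 2.26 against -3.07, -2.71 and -0.85 and rose by 4.80 ± 0.61 (27.9-fold). The eosinophil ribonuclease genes Ear6 and Rnase2a rose by 5.58 ± 0.64 (47.7-fold) and 4.73 ± 0.36 (26.5-fold), and Siglecf, a sialic acid receptor, rose as well. Ear6 was at 1.93, 3.58 and 2.21 against -4.28, -3.07 and -1.67 and Rnase2a at 3.48, 4.75 and 3.46 against -0.82, -0.60 and -1.08, with no overlap for either. These ribonucleases form a cluster of near copies, and cross-hybridisation was not tested. The receptor for interleukin-5 (Il5ra) and the eotaxin receptor gene Ccr3, which mark eosinophils at the surface and are picked here after their values were seen, measured 0.12 and 0.05 and were not called (both adjusted p = 1.000).

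Part of a mixed mast cell and basophil list was higher in Gr1+ cells. Of 21 measured members 6 rose and 0 fell, at a median of 0.49, with 16 differences above 0 and 5 below. The genes that rose include the basophil proteases Prss34 and Mcpt8, histidine decarboxylase (Hdc), which makes histamine, the receptor Cd200r3 and the cytokine Il4. Prss34 was at 4.72, 4.76 and 2.22 in Gr1+ cells and -1.90, -0.64 and -1.54 in Sca1hi cells and rose by 5.26 ± 0.63 (38.4-fold, adjusted p = 0.00302). Mcpt8 was at 6.49, 6.41 and 5.35 against 1.52, 3.43 and 1.91 and rose by 3.8 ± 0.51 (13.9-fold, adjusted p = 0.00495), and Hdc was at 6.51, 6.29 and 5.48 against 1.65, 3.34 and 2.44 and rose by 3.62 ± 0.45 (12.3-fold, adjusted p = 0.00349). Gr1+ replicate 3 is the lowest Gr1+ array in all 3, whereas for the secondary granule genes above it was replicate 1. Over the list, replicate 3 was the lowest Gr1+ array for 18 of 21 members, against 3 of 25 secondary granule genes and 8211 of 29863 genes tested with a value on all 3 arrays. Cd200r3 rose by 3.20 ± 0.42 (9.16-fold) and Il4 by 2.86 ± 0.38 (7.26-fold). With replicate number as a block 9 rose and 2 fell. The 15 members not called measured -1.49 to 2.17. The median level of the list lay between -0.38 and 0.77 in the Gr1+ arrays and between -1.08 and -0.45 in the Sca1hi arrays. Mcpt8, Hdc, Cd200r3 and Il4 lost their calls with array median scaling.

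Monocyte and macrophage genes moved in part. Of 27 measured members 8 rose and 0 fell, at a median of 0.45 (1.19 without the 2 compressed arrays). F10, the coagulation factor X gene, was at 3.51, 5.72 and 4.89 in Gr1+ cells and -1.01, 1.35 and -0.06 in Sca1hi cells and rose by 4.61 ± 0.65 (24.4-fold, adjusted p = 0.00656). Adgre1, which encodes F4/80, an antigen of macrophages and eosinophils, was at 4.72, 4.88 and 4.33 against -0.28, 0.80 and 0.07 and rose by 4.44 ± 0.31 (21.7-fold, adjusted p = 0.000237). Cd14, the lipopolysaccharide co-receptor, was at 2.66, 4.06 and 2.65 against -0.97, -1.20 and -1.09 and rose by 4.21 ± 0.37 (18.5-fold, adjusted p = 0.000752). The arrays of these 3 genes do not overlap between the groups. Ccr2, the chemokine receptor of inflammatory monocytes and basophils, rose by 3.89 ± 0.81 (14.9-fold, adjusted p = 0.0450) from a wide range in Sca1hi cells (-4.85, -1.79 and -1.01). Fcgr4, a receptor for IgG, rose by 3.01 ± 0.39 (8.04-fold). The median level of the list lay between -1.55 and -0.65 in the Gr1+ arrays and between -2.43 and -1.11 in the Sca1hi arrays, and 2 members were below background on both Sca1hi arrays that were not compressed. Of the 27, 19 were not called, from -0.52 to 2.61. Ccr2 lost its call without Gr1+ 1, Gr1+ 2 or Sca1hi 2. Ccr2 lost its call with no filter on dim probes or the mean of a gene's probes.

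All 29 measured pattern recognition genes had a difference above 0, against 45.0% of all genes tested, and 11 rose, at a median of 1.43 (17 rose and 0 fell with replicate number as a block). Clec5a, a C-type lectin that signals through an adaptor, was at 3.10, 4.25 and 3.58 in Gr1+ cells and -1.96, -1.58 and -1.20 in Sca1hi cells and rose by 5.22 ± 0.34 (37.4-fold, adjusted p = 0.000236). Tlr2, the receptor for bacterial lipopeptides, was at 2.79, 2.94 and 2.36 against -0.72, -0.07 and -0.000112 and rose by 2.96 ± 0.28 (7.80-fold, adjusted p = 0.000931). Both hold their groups well apart. Trem3 rose by 4.79 ± 0.63 (27.6-fold), and Nod1, a sensor of bacterial cell wall, by 3.62 ± 0.35 (12.3-fold). Among 32 Fc receptors and paired inhibitory or activating receptors with their kinases, 17 rose and 0 fell, at a median of 1.63. Sirpa, which binds CD47, was at 2.22, 3.81 and 3.16 in Gr1+ cells and -4.98, -3.05 and -2.52 in Sca1hi cells and rose by 6.58 ± 0.62 (96.0-fold, adjusted p = 0.000866), with probes from 0.93 to 6.58. Clec4a2, an inhibitory lectin, rose by 6.03 ± 0.41 (65.3-fold), with probes from -0.25 to 6.97. For Igsf6 the difference was 5.53 ± 0.51 (46.1-fold), and for Fcgr3, the activating receptor for IgG, 4.93 ± 0.43 (30.4-fold). Tlr2 lost its call with array median scaling. Clec4a2 lost its call with the mean of a gene's probes.

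Chemoattractant receptors, chemokines and cytokine receptors rose in smaller shares. Of 26 chemoattractant receptor genes 6 rose and 0 fell, at a median of 0.69 (12 rose and 1 fell with replicate number as a block). Fpr2, a formyl peptide receptor, was at 0.16, 2.72 and 2.19 in Gr1+ cells and -4.43, -4.28 and -3.84 in Sca1hi cells and rose by 5.88 ± 0.60 (58.7-fold, adjusted p = 0.00115), with probes from 2.01 to 5.88. Receptors for small metabolites rose with it: Adora2b for adenosine by 3.68 ± 0.34, Hcar2 for hydroxycarboxylic acids by 3.26 ± 0.64 and P2ry2 for nucleotides by 3.03 ± 0.31. Among 30 chemokines and cytokines 8 rose and 0 fell, at a median of 0.90 (15 rose and 0 fell with replicate number as a block). Ccl6 was at 8.27, 8.21 and 7.49 in Gr1+ cells and 0.09, 3.57 and 1.34 in Sca1hi cells and rose by 6.32 ± 0.73 (80.1-fold, adjusted p = 0.00234). Ccl3 was at 5.53, 4.91 and 3.48 against -0.46, 0.95 and -0.85 and rose by 4.76 ± 0.57 (27.1-fold, adjusted p = 0.00293). Gr1+ replicate 3 is the lowest of its group for both chemokines, as for Prss34, Mcpt8 and Hdc. Il1rn, the interleukin-1 receptor antagonist, rose by 4.96 ± 0.59, Cxcl10, an interferon-induced chemokine, by 5.39 ± 0.97, and Csf1, the macrophage growth factor, by 3.32 ± 0.41. Cxcl10 was well above background on 1 of 3 Sca1hi arrays. Of 38 cytokine receptor genes 8 rose and 0 fell, at a median of 0.44. The decoy receptor Il1r2 was at 0.02, 2.20 and 1.54 in Gr1+ cells and -3.89, -4.44 and -2.23 in Sca1hi cells and rose by 4.78 ± 0.67 (27.4-fold, adjusted p = 0.00632). Csf2ra, the GM-CSF receptor chain, was at 4.57, 5.66 and 5.07 against 1.41, 1.56 and 0.51 and rose by 3.94 ± 0.37 (15.3-fold, adjusted p = 0.000833). Csf3r, the receptor for G-CSF, stood at -0.73, 0.80 and 0.35 against -2.96, -2.11 and -2.51 and rose by 2.67 ± 0.44 (6.37-fold, adjusted p = 0.0155). Tnfrsf1a and Ifngr1, receptors for tumour necrosis factor and interferon gamma, rose by 2.68 ± 0.29 and 2.55 ± 0.35. Csf1, Csf3r, Tnfrsf1a and Ifngr1 lost their calls with array median scaling. Hcar2 and Cxcl10 lost their calls without Gr1+ 1, Gr1+ 2, Sca1hi 1 or Sca1hi 2, and Csf3r lost its call without Gr1+ 2 or Sca1hi 1. Hcar2 lost its call with the values without scaling or no filter on dim probes, and Il1rn lost its call with the mean of a gene's probes.

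Genes of killing and digestion rose in part. The difference was above 0 for all 36 lysosomal genes measured, 29 of them did not overlap between the groups (7.21% of all genes), and 11 rose, at a median of 1.13 (21 rose and 0 fell with replicate number as a block). Ctsh, the protease cathepsin H, was at 2.10, 2.89 and 1.86 in Gr1+ cells and -1.86, -1.80 and -1.40 in Sca1hi cells and rose by 3.97 ± 0.32 (15.7-fold, adjusted p = 0.000449). Neu1, a sialidase, was at 4.73, 5.35 and 5.09 against 1.75, 2.27 and 1.81 and rose by 3.11 ± 0.27 (8.65-fold, adjusted p = 0.000711). The arrays of each group lie close together in both. Cathepsin S (Ctss), the galactosidase Glb1 and the proton pump subunit Tcirg1 rose by 2.54 ± 0.50, 1.97 ± 0.32 and 1.75 ± 0.35. Of 17 genes of the NADPH oxidase and of peroxide handling 4 rose and 0 fell, at a median of 0.78. Cyba, the membrane subunit p22-phox, was at 4.37, 4.85 and 4.61 against 2.26, 2.87 and 1.95 and rose by 2.25 ± 0.30 (4.75-fold, adjusted p = 0.00472), and Ncf1, the cytosolic subunit p47-phox, was at 2.87, 3.78 and 3.41 against 1.06, 1.76 and 0.76 and rose by 2.16 ± 0.33 (4.46-fold, adjusted p = 0.0108). The proton channel Hvcn1 rose by 2.51 ± 0.32 and glutathione reductase (Gsr) by 1.83 ± 0.29. Among 27 integrins and selectins 4 rose and 0 fell, at a median of 0.43 (8 rose and 0 fell with replicate number as a block). Among these were the leukocyte integrin chains Itgb2 (2.87 ± 0.32) and Itgam (2.23 ± 0.34) and Cd44 (2.11 ± 0.32), the receptor for hyaluronan. Itgb2 was at 4.44, 4.87 and 4.16 against 1.58, 2.15 and 1.13, with no overlap. The probes of Cd44 ranged from -0.05 to 2.11. Neu1, Glb1, Tcirg1, Cyba, Ncf1, Hvcn1, Gsr, Itgb2, Itgam and Cd44 lost their calls with array median scaling. Ctss and Tcirg1 lost their calls without Gr1+ 2, Gr1+ 3, Sca1hi 1 or Sca1hi 2, and Glb1 lost its call without Gr1+ 1, Gr1+ 2 or Sca1hi 1. Ncf1 and Gsr lost their calls without Gr1+ 2, and Itgam lost its call without Gr1+ 2 or Sca1hi 2. Cd44 lost its call without Sca1hi 2. Ctss lost its call with the values without scaling, and Tcirg1 lost its call with the values without scaling, no filter on dim probes or the compressed arrays left out, and Cd44 lost its call with the mean of a gene's probes.

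Among transcription factors of the myeloid lineage, 9 of 35 rose and 0 fell, at a median of 0.62 (13 rose and 2 fell with replicate number as a block). Cebpd, a C/EBP factor of late granulocytes, was at 3.35, 4.76 and 4.22 in Gr1+ cells and -1.96, -0.68 and -0.66 in Sca1hi cells and rose by 5.21 ± 0.44 (37.0-fold, adjusted p = 0.000569). Gfi1, the repressor that favours granulocytes over monocytes, was at 2.41, 3.64 and 3.42 against -2.57, -0.34 and -0.60 and rose by 4.33 ± 0.56 (20.1-fold, adjusted p = 0.00425). In both genes replicate 1 is the lowest array of each group. Nfil3, Id2 and Klf5, regulators with roles in several myeloid lineages, rose by 2.57 ± 0.30, 2.37 ± 0.37 and 2.12 ± 0.24. Cebpe, the C/EBP factor of secondary granule genes, had no probe named for it. Spi1, the gene of PU.1, was at -1.24, -0.98 and -0.93 in Gr1+ cells and -2.36, -2.35 and -2.20 in Sca1hi cells, with no overlap and a difference of 1.25 ± 0.33 that did not pass (adjusted p = 0.132). Cebpa was at 2.01, 2.27 and 2.09 against 0.94, 1.39 and 0.77, also without overlap, and measured 1.09 ± 0.25 (adjusted p = 0.0663). With replicate number as a block Spi1 and Cebpa passed (adjusted p = 0.00712 and 0.0123), in the fit without weight for the single gene's spread. Gata2 and Myb, which act in progenitors and mast cells, overlapped between the groups and measured 0.08 ± 0.33 and 0.43 ± 0.33, and the sign of Gata2 turned with quantile normalization (-0.14). Myc measured -0.35 ± 0.29 and the erythroid factor Gata1 0.51 ± 0.26, and neither passed (adjusted p = 1.000 and adjusted p = 0.732). Gfi1b, the erythroid and megakaryocytic relative of Gfi1, went the other way in value, at 2.15, 1.41 and 1.31 against 3.06, 3.42 and 2.30 and -1.30 ± 0.35, and did not pass (adjusted p = 0.130). With the block it fell (adjusted p = 0.00185), and without the 2 compressed arrays too (adjusted p = 0.0209). Nfil3, Id2 and Klf5 lost their calls with array median scaling. Id2 lost its call without Gr1+ 2.

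Olr1 and Rhou were among the 12 largest fitted increases and in none of the lists. Olr1 encodes a receptor for oxidised lipoprotein and Rhou a small GTPase. Olr1 was at 0.99, 1.33 and 0.70 in Gr1+ cells and -8.17, -5.64 and -5.04 in Sca1hi cells and rose by 7.29 ± 0.76 (adjusted p = 0.00139). With 1 of 3 Sca1hi arrays well above background, the size of this change is uncertain. Rhou was at 1.59, 2.63 and 2.26 against -8.12, -5.19 and -1.82 and rose by 7.21 ± 1.24 (148-fold, adjusted p = 0.0187), with 2 of 3. The Rhou values of Sca1hi cells range widely, and the compressed replicate 3 lies highest. Rhou lost its call without Gr1+ 1 or Sca1hi 2.

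Fewer genes fell, and by less. Slc14a1, a urea transporter of red cells, was at -3.04, -3.61 and -1.35 in Gr1+ cells and 1.11, 1.46 and 0.88 in Sca1hi cells and fell by 3.82 ± 0.53 (14.1-fold lower, adjusted p = 0.00580). Khdc1a was at -3.47, -5.25 and -2.66 against 0.27, 0.31 and -0.38 and fell by 3.86 ± 0.62 (14.5-fold lower, adjusted p = 0.0132). Gr1+ replicate 3, a compressed array, is the highest Gr1+ array in both. Hemgn, a nuclear protein of haematopoietic progenitors and erythroid cells, was at -0.77, -0.71 and -0.64 against 2.53, 2.69 and 1.35 and fell by 2.90 ± 0.35 (7.45-fold lower, adjusted p = 0.00310), with probes from -2.90 to -0.64. Podxl, a sialomucin of blood progenitors and vessels, was at -1.85, -3.0 and -2.24 against 1.03, 0.89 and -0.04 and fell by 2.99 ± 0.41 (7.93-fold lower, adjusted p = 0.00569). Cd96, a surface receptor of the immunoglobulin family, was at -1.25, -1.86 and -1.75 against 1.79, 2.04 and 0.62 and fell by 3.10 ± 0.39 (8.59-fold lower, adjusted p = 0.00358). In these 3 genes Sca1hi replicate 3 is the lowest of its group, and no array overlaps. The fibroblast growth factor gene Fgf3 fell by 3.12 ± 0.38 (8.69-fold lower, adjusted p = 0.00319), and Ccdc102a, Grtp1, Phldb1 and Abca4 fell by 3.12, 2.86, 2.81 and 2.68 on the log2 scale. Itm2a fell by 2.74, with no value on Sca1hi replicate 3, where its spot was an outlier. Vat1l fell by 3.52, but its probes ranged from -3.52 to -0.60 and its call ended in 11 of 22 other settings. Hemgn, Podxl, Cd96, Fgf3, Ccdc102a, Grtp1, Phldb1 and Abca4 lost their calls with array median scaling. Slc14a1, Podxl and Phldb1 lost their calls without Sca1hi 2, and Khdc1a lost its call without Sca1hi 1 or Sca1hi 2. Grtp1 and Abca4 lost their calls without Gr1+ 1, Gr1+ 2, Sca1hi 1 or Sca1hi 2, and Itm2a lost its call without Gr1+ 2, Sca1hi 1 or Sca1hi 2. Within slides 1 and 3 Slc14a1 measured -4.14 and -2.81.

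Stem and progenitor genes moved little as a list. Of 39 measured members 0 rose and 2 fell, at a median of -0.14 (0.01 without the 2 compressed arrays), and 2 rose and 8 fell with replicate number as a block. Mycn, a Myc family gene of stem cells, was at -0.58, -1.96 and -1.05 in Gr1+ cells and 1.46, 1.49 and 0.86 in Sca1hi cells and fell by 2.47 ± 0.38 (5.52-fold lower, adjusted p = 0.0102). Sox4, a transcription factor of early lymphoid and myeloid progenitors, was at 0.03, -0.48 and 0.15 against 1.27, 1.80 and 1.1 and fell by 1.49 ± 0.29 (2.81-fold lower, adjusted p = 0.0334). Every Gr1+ array lies below every Sca1hi array for both. The remaining 37 members measured -1.71 to 2.56. Of 31 erythroid and megakaryocyte genes 2 rose and 2 fell, at a median of -0.04. Zfpm1, the cofactor of Gata1, was at 2.56, 1.66 and 2.28 against 4.48, 4.66 and 3.65 and fell by 2.09 ± 0.35 (4.27-fold lower, adjusted p = 0.0150). Carbonic anhydrase 2 (Car2) was at 0.15, 0.07 and -0.13 against 2.59, 2.06 and 1.23 and fell by 1.93 ± 0.34 (3.81-fold lower, adjusted p = 0.0205). The genes that rose encode products of platelets, Vwf, the von Willebrand factor, by 2.64 ± 0.42 and Ppbp, a chemokine precursor of the alpha granule, by 2.59 ± 0.39. Vwf was at 4.03, 2.92 and 2.23 against 0.49, 0.74 and 0.03 and Ppbp at 0.62, 1.86 and 0.53 against -1.34, -1.52 and -1.90. The median level of the list lay between -1.35 and -1.09 in the Gr1+ arrays and between -0.54 and -0.40 in the Sca1hi arrays, and with replicate number as a block 2 members rose and 6 fell. Of 26 dendritic cell and lymphoid genes 0 rose and 0 fell (limma, 1 higher and 2 lower at an unadjusted p under 0.05), and Il7r and Rag1 measured 2.58 ± 0.82 and 1.83 ± 1.24 (adjusted p = 0.243 and adjusted p = 1.000), each well above background on 2 of 3 Sca1hi arrays and Rag1 without a value on replicate 3. With the block 1 gene of this list rose and 2 fell, as without the compressed arrays, and Il7r passed in both settings (adjusted p = 3.44e-06 and 0.0085). In the comparison of 2 steps below, another probe stood for Il7r and for Rag1. Their Gr1+ minus Sca1hi differences were 0.32 and 0.11 there. Mycn, Sox4, Zfpm1, Car2, Vwf and Ppbp lost their calls with array median scaling. Mycn, Vwf and Ppbp lost their calls without Sca1hi 2, and Sox4 and Car2 lost their calls without Gr1+ 1, Gr1+ 2, Sca1hi 1 or Sca1hi 2. Zfpm1 lost its call without Gr1+ 2, Sca1hi 1 or Sca1hi 2. Mycn lost its call with the mean of a gene's probes.

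Genes of growth and division lay mostly below 0 as differences of means, with the pair of arrays numbered 3 going the other way, and none was called in the replication, mitosis and ribosome lists. All 38 measured genes of ribosome biogenesis had a difference below 0, against 55.0% of all genes, 12 did not overlap (5.10% of all genes), and 0 passed in limma (13 lower and 0 higher at an unadjusted p under 0.05), at a median of -0.58. The median stayed below 0 under every scaling, from -0.49 (array medians) to -0.87 (no scaling). Without the 2 compressed arrays 13 of them fell, against 1.78% of all genes, and with replicate number as a block 3. The ribosome list's median was -0.75, -1.11 and 0.03 in pairs 1, 2 and 3, and pair 3 is that of the compressed arrays. Ddx21, a helicase of the nucleolus, was at 1.04, 0.87 and 1.62 in Gr1+ cells and 2.40, 2.43 and 1.96 in Sca1hi cells, a difference of -1.09 ± 0.27 (adjusted p = 0.109). Polr1e, a subunit of RNA polymerase I, was at -0.11, -0.38 and -0.03 against 0.85, 1.32 and 0.39, a difference of -1.03 ± 0.29 (adjusted p = 0.171). The compressed replicate 3 of Sca1hi is the lowest Sca1hi array in both. DNA replication genes had a median of -0.43, 30 of 32 below 0 and 0 called in limma (4 lower at an unadjusted p under 0.05), with 6 lower without the compressed arrays and 0 with the block. Its median in the 3 pairs was -0.89, -0.70 and 0.32. Mitosis genes had a median of -0.29, 33 of 34 below 0 and 0 called in limma (2 lower at an unadjusted p under 0.05), with 0 lower without the compressed arrays and 1 with the block. Its median in the 3 pairs was -0.78, -0.54 and 0.41. The polymerase gene Pole measured -0.94 ± 0.30 and the topoisomerase gene Top2a -0.85 ± 0.35, with Ung, a DNA repair glycosylase, at -0.79 ± 0.28 and Ttk, a spindle checkpoint kinase, at -1.40 ± 0.83. With the block Ttk, Ddx21 and Polr1e passed (adjusted p = 0.00174, 0.0136 and 0.0190), and without the compressed arrays Pole, Ung, Ddx21 and Polr1e (adjusted p = 0.0124, 0.0405, 0.00749 and 0.0304). Gr1+ replicate 1 was the lowest Gr1+ array for all 32 replication and all 34 mitosis genes, and their median levels there were 2.41 and 1.44 against 2.81 and 2.05 on replicate 2. Replicate 1 was also the lowest Gr1+ array for 20 of 25 secondary granule genes. It was the lowest for 312 of the 476 genes that rose and for 9618 of 29863 genes tested with a value on all 3 arrays. Among 25 inhibitors of the cell cycle Cdkn2b rose, by 2.34 ± 0.42 (adjusted p = 0.0317, with no value on Sca1hi replicate 1), and 7 rose and 1 fell with the block. Of 22 genes in the list of Myc and G1 cyclins 0 rose and Mycn alone fell in limma. At an unadjusted p under 0.05 in limma, 4 were higher and 3 lower, and with the block 3 rose and 1 fell. Cdkn2b lost its call with array median scaling. Cdkn2b lost its call without Gr1+ 1, Gr1+ 2 or Sca1hi 2.

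Calls in the remaining lists were few. Respiratory chain genes had a median of 0.06 over 51 members with 0 called in limma (0 at an unadjusted p under 0.05), which turned to -0.20 with quantile normalization and -0.24 without scaling. Its highest values were 0.52 ± 0.35 for Ndufa1 and 0.50 ± 0.36 for Cox7a2, of complexes I and IV. Cholesterol and fatty acid synthesis had -0.03 over 31 with 0 called in limma (4 higher at an unadjusted p under 0.05), a median that turned to 0.06 with array medians, with Fdps and Sc5d, enzymes of sterol synthesis, at 0.93 ± 0.34 and 0.79 ± 0.26. The median of antigen presentation genes was -0.20 over 18 with 0 called in limma (1 higher and 2 lower at an unadjusted p under 0.05). Without the compressed arrays 4 antigen presentation genes fell and with the block 1, and H2-Ab1, a class II chain that passed in both settings, measured -2.02 ± 0.50 (adjusted p = 0.0984) and H2-DMb1, a class II chaperone chain, 0.96 ± 0.29. Of 29 genes of glycolysis and the pentose phosphate path 3 rose, at a median of 0.66: the lactate exporter Slc16a3 by 2.30 ± 0.25, glycogen phosphorylase Pygl by 2.25 ± 0.34 and G6pdx, the first enzyme of the pentose path, by 1.72 ± 0.34. With the block 8 rose. Of 29 measured interferon response genes 1 rose and 1 fell, against 1.59% and 0.291% of all genes, and 27 were not called. The list median was -0.02. Ifitm6 rose by 4.57 ± 0.38 (23.7-fold, adjusted p = 0.000569). Usp18, a protease that removes the modifier Isg15, fell by 2.20 ± 0.34 (4.61-fold lower, adjusted p = 0.0102). Ifitm6 was at 1.65, 3.15 and 2.48 against -2.41, -1.80 and -2.21. In the Bcl2 family Bcl2a1b, an inhibitor of apoptosis, rose by 4.84 ± 1.01 and Pmaip1, which promotes it, by 2.22 ± 0.29. Bcl2a1b has near copies in the genome, and cross-hybridisation was not tested. Pdia4 and Edem1 of the endoplasmic reticulum rose by 1.34 ± 0.26 and 1.33 ± 0.27, Dusp6, a phosphatase of the ERK path, by 1.93 ± 0.37, the prostaglandin synthase Ptgs1 by 2.06 ± 0.36, and Sun2 and Syne1 of the nuclear envelope by 2.15 ± 0.37 and 1.82 ± 0.26. These 6 are the called members of 4 lists with 27, 35, 17 and 10 measured genes, and none fell there. With the block 5 genes of the immediate early list rose and 1 fell, and 5 eicosanoid genes rose. The probes of Syne1 ranged from 0.85 to 4.03 and those of Edem1 from 0.27 to 1.33. Slc16a3, Pygl, G6pdx, Usp18, Pmaip1, Pdia4, Edem1, Dusp6, Ptgs1, Sun2 and Syne1 lost their calls with array median scaling. Pygl and Syne1 lost their calls without Gr1+ 2, and G6pdx and Edem1 lost their calls without Gr1+ 1, Gr1+ 2, Gr1+ 3 or Sca1hi 1. Usp18 and Ptgs1 lost their calls without Gr1+ 2, Sca1hi 1 or Sca1hi 2, and Bcl2a1b, Pdia4 and Dusp6 lost their calls without Gr1+ 1, Gr1+ 2, Sca1hi 1 or Sca1hi 2. Sun2 lost its call without Gr1+ 1, Gr1+ 2 or Sca1hi 1. Bcl2a1b lost its call with no filter on dim probes or the mean of a gene's probes, and Pdia4 lost its call with the values without scaling, and Edem1 and Syne1 lost their calls with the mean of a gene's probes.

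**Figure D4:**
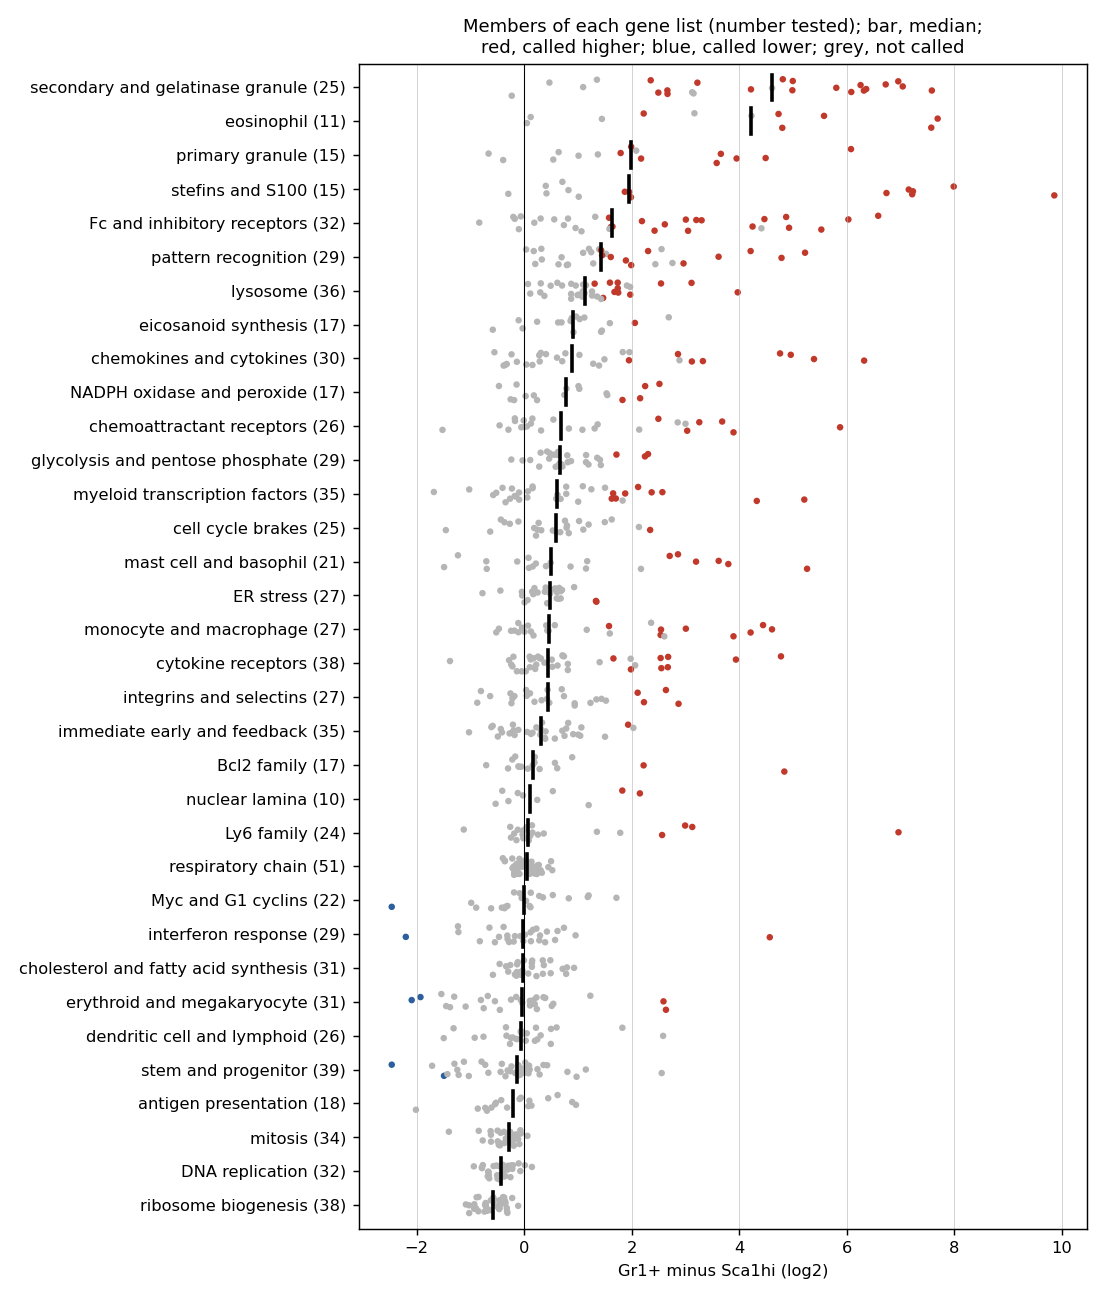
Difference between Gr1+ and Sca1hi cells (log2) for every measured member of 34 gene lists, ordered by median (black bar), with genes called higher in red, called lower in blue and not called in grey. Secondary granule (4.61) and eosinophil (4.23) genes have the highest medians and ribosome biogenesis (-0.58) the lowest.

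The step to Gr1+ was then set against the other exit from the Kit+ cells in these cultures, from Sca1lo to Kit-Gr1- cells, which shares no array with it. The difference of the 2 steps was tested for 31255 genes in 1 fit over 12 arrays, and 400 were called (1.28%), 296 with the Gr1+ step above (0.947%) and 104 below (0.333%), against a median of 0.25 over all genes. Elane rose in Gr1+ cells but measured -0.90 from Sca1lo to Kit-Gr1-, a difference of steps of 6.98 ± 0.63 (adjusted p = 0.000194). Lcn2 gave 8.27 ± 1.78 (adjusted p = 0.0413), Epx 8.13 ± 1.41 (adjusted p = 0.0126) and Ly6c1 7.81 ± 1.15 (adjusted p = 0.00512), followed by Hp, the haptoglobin gene, with 7.56 and Prg2 with 7.54. Among the genes with the Gr1+ step below, Slc14a1 gave -4.94, the water channel gene Aqp1 -4.29, Cd96 -4.08, Podxl -3.76 and Kel, of the Kell blood group, -3.74. In the same fit Aqp1 rose by 3.54 (adjusted p = 0.0230) and Kel by 2.65 (adjusted p = 0.00450) from Sca1lo to Kit-Gr1- cells. From Sca1hi to Gr1+ cells Aqp1 measured -0.75 (adjusted p = 0.704), and Kel fell in this fit (-1.09, adjusted p = 0.0451). Kit differed between the steps by 2.48 ± 0.36 (adjusted p = 0.00449), and it measured -2.20 on the way to Kit-Gr1- cells, which were gated for its absence.

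Of the 476 genes that rose in Gr1+ cells, 260 also had a called difference between the steps, and of the 87 that fell 45 had. The difference of steps holds the same Gr1+ and Sca1hi arrays that chose these genes, so these counts and those by list below are descriptions. By list, all 6 eosinophil genes that rose differed between the steps, as did 13 of 18 secondary granule genes, 11 of 17 Fc and inhibitory receptors and 6 of 8 primary granule genes. For genes of the mast cell and basophil list it was 1 of 6, and for stefins and S100 genes 3 of 9. Mcpt8 was 1.92, 3.74 and 2.01 in Sca1lo and 4.22, 6.0 and 4.62 in Kit-Gr1- cells, so it was higher in Kit-Gr1- cells in all 3 pairs, and its difference of steps was 1.40 ± 0.86 (adjusted p = 0.971). Cd200r3 was -0.65, 0.83 and 0.13 and 1.80, 3.18 and 2.61, with 0.77 ± 0.67 (adjusted p = 0.971). Hdc gave 2.16 ± 0.71 (adjusted p = 0.270) and Il4 1.02 ± 0.56 (adjusted p = 0.940). None of these 4 passed, which does not show an equal change in both steps. S100a8 gave 9.52 ± 3.89 (adjusted p = 0.547). The 10 erythroid and megakaryocyte genes with a called difference all had the Gr1+ step below. The count of 400 moved by more than 1.5 times without Sca1hi replicate 3 (538 above and 463 below), Sca1hi replicate 1 (204 and 51), Gr1+ replicate 2 (137 and 39), Sca1lo replicate 2 (153 and 36), Sca1lo replicate 3 (188 and 43), Kit-Gr1- replicate 1 (190 and 51) and Kit-Gr1- replicate 3 (207 and 40). With replicate number as a block the counts were 520 and 222.

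**Figure D5:**
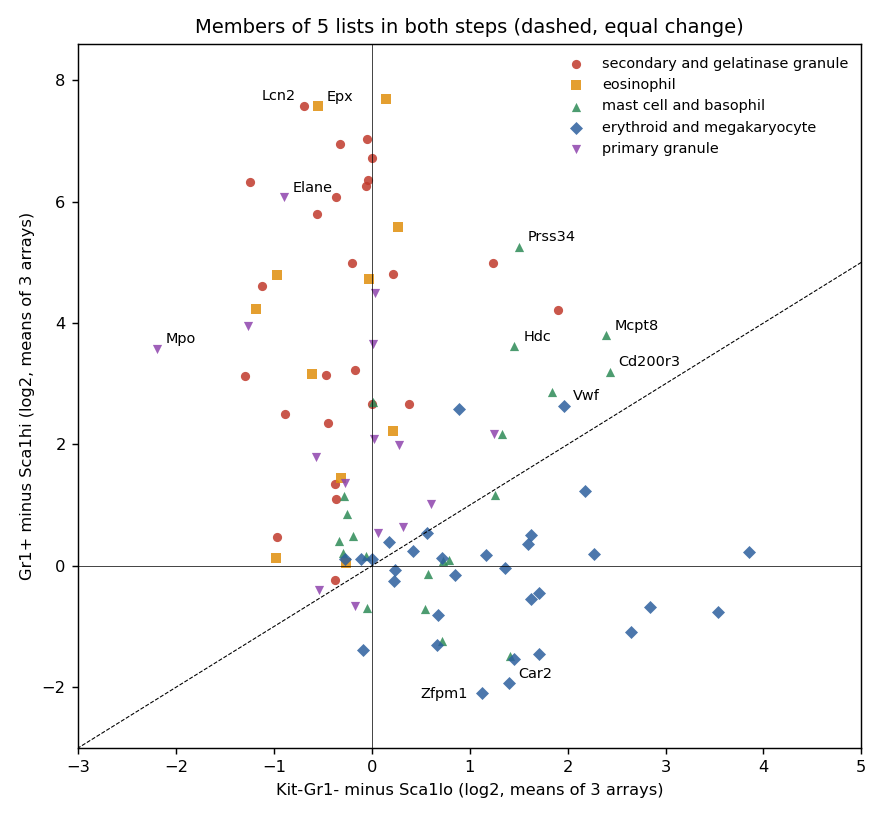
Each point is a measured gene of 5 lists, with its change from Sca1lo to Kit-Gr1- cells on the x axis and from Sca1hi to Gr1+ cells on the y axis (log2, means of 3 arrays or fewer where a spot was an outlier). Of the secondary granule and eosinophil lists, Lcn2 and Epx lie high at -0.69 and -0.55 on the x axis. These 2 lists reach down to -0.23 and 0.05 on the y axis. Of the primary granule list, Elane and Mpo lie at -0.90 and -2.20 on the x axis. Mcpt8 of the mast cell and basophil list (2.39 and 3.8) lies above 0 on both, and most erythroid genes lie to the right of 0.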

How the data were processed

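RNA of flow-sorted FDCPmix fractions was measured on single-colour Agilent mouse arrays. Per the file headers, Feature Extraction 10.1.1.1 made the deposited intensity of each spot, subtracting background, with probes placed on build mm8. The deposited series table holds log2 processed signals of the same arrays, unscaled, equal to the scanner files within 5e-09. Replicate samples are called biological in the series' design text.

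Here log2 intensity minus each array's 75th percentile was used. Flagged outlier spots were set missing (427 genes lack a value on some array), control spots were left out, and probes flagged well above background by the scanner software on 3 or more of the 6 arrays were kept. The brightest kept probe stood for its gene: 37223 probes gave 29904 genes, 15919 with a symbol. No spot was saturated. Limma 3.58.1 in R 4.3.3 (lmFit, eBayes with trend, residual df 4, prior df 5.45) was fitted to the 6 arrays alone, after a test on simulated data, and Benjamini-Hochberg adjustment ran over all genes. The contrast of the 2 steps used all 12 sorted arrays. Tables and plots came from pandas 2.3.3, numpy 2.4.6 and matplotlib 3.10.9 under Python 3.11.15. The number of arrays limits the precision.

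Deviations from group means of same-numbered Gr1+ and Sca1hi arrays correlated at 0.70, 0.71 and 0.80 for numbers 1, 2 and 3. For unlike numbers the correlations ranged from -0.78 to 0.50. Pair 1 shares a slide and pair 3 holds both arrays with compressed signals. For the same-number correlations, these cannot be told apart from a shared culture. Pairing by number entered the block settings and the differences by pair as a check, and the reported fit has no term for it.

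The members, the 35 gene lists (957 genes, of which 62 had no named probe, 10 were filtered and 885 tested) and the tests were chosen with earlier results of these data known. Named genes are the 12 largest rises and falls among called genes with a symbol and no overlap, the markers and 9 regulators, up to 5 called members of each list (or 2 uncalled ones) and the 5 largest differences between the steps each way, and a few named genes are not reported here. Alternatives covered scaling, background correction, probe filter and choice, replicate and slide blocks, other arrays in the fit, array weights, moderation without a trend, and each array left out.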

Additional observations from a re-analysis of the deposited data

How the results depend on the processing

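Across the alternatives, which share arrays with the reported fit, the 476 higher and 87 lower calls kept their direction, and the counts moved. The count of higher genes was 172 with array median scaling, 1088 with the replicate block, 769 with slide as a fixed block, 882 with the 12 sorted arrays in the fit, 248 with all 14 arrays, 1747 with array weights (which did not converge), 735 without both compressed arrays, 722 without them and with the probe filter on the other 4 arrays (chosen after seeing the data), and 79 without a trend. The count of lower genes under the same settings was 4, 462, 488, 327, 98, 1157, 532, 527 and 0, with 244 after quantile normalization, 237 after normexp correction and 396 without scaling. Leaving out each array in turn gave 211 to 796 higher and 12 to 456 lower genes. The 400 genes whose steps differed were 113 with array median scaling, 637 with quantile normalization, 742 with the replicate block, 843 with slide as a block and 2073 with array weights, and 176 to 1001 with an array left out. The cause of these moves was not tested, beyond the lower number of arrays where some were left out.

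Of the 109 called genes chosen for naming, 20 kept their call in every setting and 63 with each array left out in turn, and 0 turned direction. The fit with replicate number as a block ended none of these 109 calls. That fit gave the spread of the single gene no weight and called more genes than the reported one. It could hardly end these calls, so their being kept is no check of the pairing. Signs turned for 2 uncalled genes. Kit measured -0.0074 without scaling and -0.15 with slide as a block. Gata2 measured -0.14 with quantile normalization, -0.14 with normexp correction, -0.21 without scaling and -0.079 with slide as a block, and lay between -0.098 and 0.39 with each array left out. Signal over background limits Olr1 and Cxcl10, each above background on 1 of 3 Sca1hi arrays. It also limits S100a8, Lcn2, Rhou, Camp, Il7r and Rag1, each above background on 2 of 3. On Sca1hi replicate 3, with its wide spread of negative control spots, the background flag has the limit given above.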

Other observations

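The genes that rose in Gr1+ cells were also read in the 2 arrays of unfractionated FDCPmix cells, which enter the comparison only in the fit over 14 arrays. S100a8 stood at -0.11 and 8.07 there, Prg2 at 0.09 and 7.37, Lcn2 at -1.44 and 4.16, Elane at -1.30 and 1.73 and Mpo at 3.49 and 8.33 (log2 signal minus the array's 75th percentile, replicates 1 and 2). On replicate 2 the levels of S100a8, Prg2 and Lcn2 lie within the range of the 3 Gr1+ arrays, and those of Elane and Mpo below all 3. On replicate 1 S100a8 and Prg2 lie within the range of the Sca1hi arrays, Lcn2 and Elane between the groups, and Mpo below all arrays of both. Replicate 1 was the more compressed array, with an interquartile range of 1.78 on the log2 scale against 4.82, and the part of this compression in its low levels was not tested.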
